A study of Mus musculus with 30 samples.

Results

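The 10 genes described here encode enzymes and helpers that turn newly made collagen chains into crosslinked fibres. They were taken by symbol from the deposited table, in which all 10 were present among 21073 genes: P4HA1, P4HA2, PLOD1, PLOD2, PLOD3, LOX, LOXL1, LOXL2, SERPINH1 and PCOLCE. Their RNA was measured by poly(A) RNA-Seq in the extensor digitorum longus (EDL), a fast hind limb muscle, of wild-type female SJL mice. The groups were unimmunized mice (Ctrl), mice immunized with ovalbumin in complete Freund's adjuvant (OVA), and mice in which experimental autoimmune encephalomyelitis (EAE), a model of multiple sclerosis, was induced with the myelin proteolipid protein peptide [Ser140]-PLP139-151 in the same adjuvant (CFA). Each group had 5 mice on day 14 and 5 other mice on day 40, 30 mice in all. The OVA and EAE groups shared the adjuvant, so their comparison asks what differs beyond it. Ages of the mice are not given in the sources used here. Days 14 and 40 hold different mice, so day cannot be told apart from age or from any handling that differed between days.

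Collagen is made in the endoplasmic reticulum, where prolyl 4-hydroxylases stabilise its triple helix by hydroxylating prolines and lysyl hydroxylases modify lysines that later carry sugars or crosslinks. A collagen-specific chaperone holds the folded molecule on its way out of the cell, proteinases then remove its end peptides, and lysyl oxidases join the molecules outside the cell. In skeletal muscle most of this work is done by fibroblasts and their relatives in the connective tissue between the fibres, and the enzymes are known for their part in the stiffness and force transmission of that tissue.

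RNA levels are given as RPKM, reads per kilobase of exon scaled to the number of mapped reads, recovered from the deposited log2 values. The reads behind them were estimated at 18100000 to 31600000 per mouse, with a median of 21600000. At this median depth 1 RPKM stood for 65.7 reads of LOXL2, 35.1 reads of PCOLCE and 80.2 reads of PLOD2. All 12 listed markers of fast muscle fibres were above 3 RPKM in every group of this fast muscle. The first Ctrl mouse of day 14 stood apart from its group: over all genes its 4 pairs with the other mice had a chi-square per gene of 76.1 to 138, against 17.96 to 36.9 in the 6 pairs without it. Results that rest on this mouse are given with and without it. Spread of that size was not particular to this group. On day 14 the pair of OVA mice 1 and 2 had 156 and the pair of EAE mice 1 and 3 had 135. Each mouse was also left out in turn. Groups were compared with limma on log2(RPKM + 0.1), so a fold change here is on that scale, and a gene was called at a Benjamini-Hochberg adjusted p below 0.05, taken over all genes tested, together with a fold change above 1.5. A gene entered a test when 1 or more of the groups being compared had a mean above 3 RPKM. Of the 10 members 9 were tested in every comparison. PLOD2 stayed under 3 RPKM in every group mean and was not tested. LOXL2 passed the filter in the comparisons of EAE on day 14 through the other group alone.

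On day 14 the EAE mice had less RNA of the collagen-specific chaperone SERPINH1, of the proteinase enhancer PCOLCE, of the prolyl hydroxylase P4HA1 and of the lysyl oxidases LOXL1 and LOXL2 than Ctrl mice. LOXL2 was 4.78 times lower, and the other 4 were 1.75 to 2.88 times lower. P4HA2, LOX, PLOD1 and PLOD3 were not called. Against OVA mice LOXL2, PCOLCE, SERPINH1 and P4HA1 were lower as well. On day 40 no member was called in any comparison of groups.

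In the Ctrl mice of day 14 the mean levels ran from PCOLCE at 113 RPKM through SERPINH1 at 60.6, P4HA1 at 27.5, P4HA2 at 22.7, PLOD1 at 19.9, LOXL1 at 16.2, PLOD3 at 13.0, LOX at 8.88 and LOXL2 at 8.81 to PLOD2 at 2.35 RPKM. Neighbours in this order overlapped between mice except for 4 pairs: P4HA1 lay below SERPINH1, PLOD1 below P4HA2, LOX below PLOD3, and PLOD2 below LOXL2. In the EAE mice of day 14 PCOLCE, at 39.1 RPKM, and SERPINH1, at 27.7 RPKM, still had the highest means, but P4HA2 at 21.2 RPKM came before P4HA1 at 15.1 RPKM, and LOXL2 at 1.80 RPKM lay beside PLOD2 at 1.74 RPKM. These are levels per length of exon. Other differences between genes, such as exons shared with other genes, were not corrected for, so the order between genes is approximate.

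**Figure D1:**
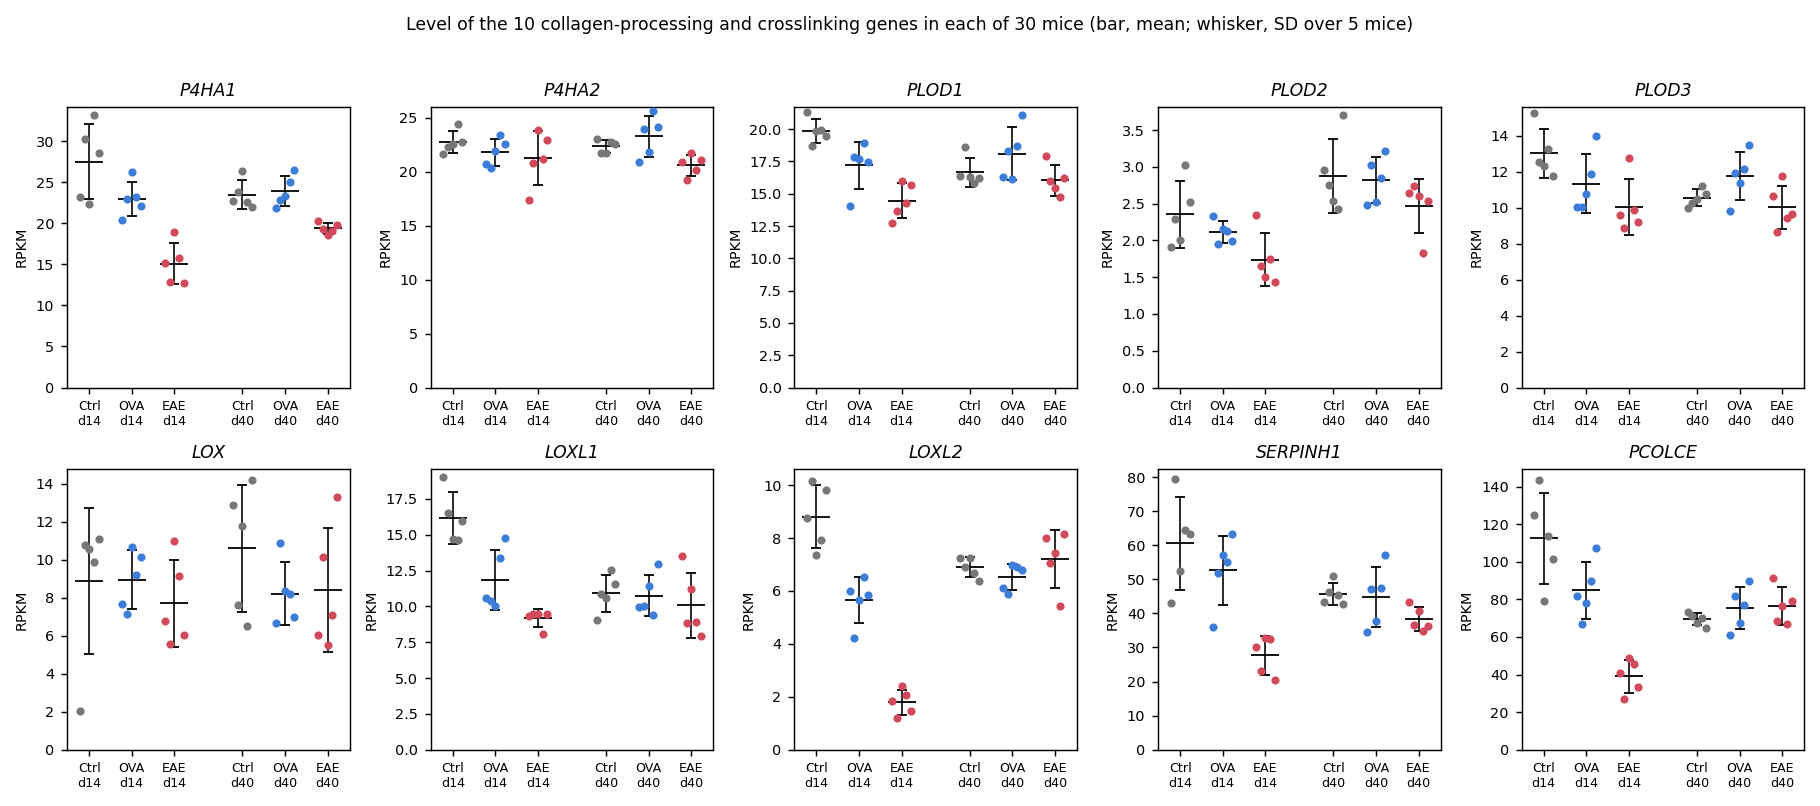
RPKM of each of the 10 genes in each mouse, by group and day, on linear axes that start at 0; points are mice, horizontal bars are means and whiskers are the SD over 5 mice. The EAE mice of day 14 lie below all Ctrl mice of that day for P4HA1, PLOD1, LOXL1, LOXL2, SERPINH1 and PCOLCE, while the group means of P4HA2 run from 20.6 to 23.3 RPKM.

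P4HA1 (GRCm38.p6 chr10:59323197-59373304, plus strand) and P4HA2 (chr11:54100924-54131668, plus strand) encode the catalytic subunits of 2 collagen prolyl 4-hydroxylases. SERPINH1 (chr7:99345375-99353239, minus strand) encodes HSP47, the chaperone that binds folded procollagen, and PCOLCE (chr5:137605105-137611522, minus strand) encodes the secreted protein that speeds removal of the C-terminal propeptide by BMP1. The bases just before the annotated start of these 4 genes are shown because P4HA1, SERPINH1 and PCOLCE were lower together in EAE mice on day 14 while P4HA2, of the same family as P4HA1, was not called. The RefSeq promoter table of GRCm38.p6 held 6 of the 10 members, and each sequence runs 5′ to 3′ on the gene's own strand and stops before the gene's first base. The windows are chr10:59323046-59323196 for P4HA1, chr11:54100674-54100923 for P4HA2, chr7:99353240-99353489 for SERPINH1 and chr5:137611523-137611654 for PCOLCE. Capitals mark ACGTG, a form of the core of the hypoxia response element, or its reverse complement CACGT. The form GCGTG was not searched and stands unmarked in the windows of P4HA1 and P4HA2.
P4HA1: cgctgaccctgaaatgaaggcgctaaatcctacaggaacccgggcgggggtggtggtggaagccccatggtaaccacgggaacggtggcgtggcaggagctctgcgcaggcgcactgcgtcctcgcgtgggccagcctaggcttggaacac
P4HA2: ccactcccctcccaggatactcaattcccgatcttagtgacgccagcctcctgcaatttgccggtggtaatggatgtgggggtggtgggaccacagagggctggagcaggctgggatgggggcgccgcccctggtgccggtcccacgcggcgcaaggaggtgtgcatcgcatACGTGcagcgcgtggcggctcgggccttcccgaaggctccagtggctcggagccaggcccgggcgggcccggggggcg
SERPINH1: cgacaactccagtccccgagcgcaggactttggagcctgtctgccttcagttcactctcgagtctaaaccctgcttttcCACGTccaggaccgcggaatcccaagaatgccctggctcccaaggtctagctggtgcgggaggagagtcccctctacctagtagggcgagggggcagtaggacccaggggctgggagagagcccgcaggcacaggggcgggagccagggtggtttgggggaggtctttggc
PCOLCE: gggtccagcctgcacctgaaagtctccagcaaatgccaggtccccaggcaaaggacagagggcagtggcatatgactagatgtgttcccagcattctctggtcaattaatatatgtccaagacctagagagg

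The ACGTG form of the hypoxia core occurred 1 time each in the 250 bases of P4HA2 and of SERPINH1. Of 32851 promoters 16.6% held it in a window of that length. These letters did not occur in the 151 bases of P4HA1 or the 132 bases of PCOLCE, where 9.28% and 8.05% of all promoters held them. The GC box letters GGGCGG, read on both strands, occurred 1 time in P4HA1, 2 times in P4HA2 and 1 time in SERPINH1, against 16.8%, 32.7% and 32.7% of promoters with at least 1 match. TATAAA, read on both strands, occurred in none of the 4 windows, against 7.34% of promoters for the P4HA1 window, 12.4% for P4HA2 and SERPINH1 and 6.57% for PCOLCE. A CACGTG would hold both ACGTG and CACGT, and none of the 4 windows has one. Matches are a description of these letters only.

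P4HA1 stood at 23.3, 30.3, 22.4, 33.2 and 28.5 RPKM in the 5 Ctrl mice of day 14. It stood at 20.4, 22.9, 26.2, 23.2 and 22.1 RPKM in the OVA mice and at 15.1, 12.9, 18.9, 15.7 and 12.8 RPKM in the EAE mice. Every EAE mouse lay below every mouse of both other groups. The fitted log2 fold change was -0.86 ± 0.13 (SE) against Ctrl (limma adjusted p = 0.000104) and -0.61 ± 0.13 against OVA (adjusted p = 0.00189). The second value lay close to the fold threshold of 1.5, at 1.53 times lower, and the gene was not called without the second EAE mouse, the fifth EAE mouse or the third OVA mouse, each giving a log2 fold change of -0.56. With a pseudocount of 1 it was -0.58, also not called.

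P4HA2 was level: 21.6, 22.3, 22.5, 24.4 and 22.7 RPKM in Ctrl mice, 20.7, 20.4, 21.9, 23.4 and 22.6 in OVA mice and 17.4, 20.8, 23.9, 21.2 and 23.0 in EAE mice of day 14. The 3 groups overlapped. The difference between EAE and Ctrl was -0.10 on the log2 scale with a 95% interval from -0.30 to 0.09, and against OVA it was -0.04 with an interval from -0.24 to 0.15. Both intervals leave out a change of 1.5-fold in either direction. Whether the 2 subunit genes differed in response was tested through their ratio within each mouse, which does not depend on library scaling. The mean log2 ratio of P4HA1 to P4HA2 was 0.26 ± 0.20 (SD, n = 5) in Ctrl, 0.07 ± 0.13 in OVA and -0.50 ± 0.26 in EAE mice. The EAE mice lay below both other groups without overlap. The difference was -0.76 against Ctrl and -0.57 against OVA (two-sided and exact permutation p = 0.00794 for each, adjusted p = 0.0476 over 36 ratio tests). This p is the smallest that 5 against 5 mice can give.

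No lysyl hydroxylase was called on day 14. PLOD1, which hydroxylates lysines in the helical part of collagen, stood at 21.3, 18.7, 19.9, 19.9 and 19.5 RPKM in Ctrl mice, at 14.1, 17.9, 17.7, 18.9 and 17.5 RPKM in OVA mice and at 12.7, 13.7, 16.0, 14.3 and 15.6 RPKM in EAE mice of day 14. EAE and Ctrl mice did not overlap, and EAE and OVA mice did. Against Ctrl the log2 fold change was -0.46 ± 0.10 (SE, limma adjusted p = 0.00123), 1.37 times lower and under the fold threshold, and against OVA it was -0.25 (adjusted p = 0.051). PLOD3, an enzyme with lysyl hydroxylase and glycosyltransferase activity, ranged from 11.8 to 15.3 RPKM with a median of 12.5 in Ctrl, from 10.0 to 13.96 with a median of 10.8 in OVA and from 8.87 to 12.7 with a median of 9.59 in EAE mice. These groups overlapped, with a log2 fold change of -0.38 ± 0.12 against Ctrl (adjusted p = 0.0167) that was again under the fold threshold. Exons of PLOD3 share 529 bases with Znhit1 on the opposite strand, and the strand setting of the counting is not given in the sources used here, so its level may hold reads of that gene.

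PLOD2, the hydroxylase of lysines in the ends of the chains, was the lowest member, at 1.91 to 3.03 RPKM in Ctrl, 1.96 to 2.34 in OVA and 1.43 to 2.35 in EAE mice of day 14. The ranges overlapped, and 346 bases of its exons lie opposite the predicted gene Gm38391. In a fit with no filter on low values its log2 fold change was -0.42 ± 0.15 (SE) against Ctrl, with a limma adjusted p of 0.048 over 17474 genes, and -0.29 against OVA, with an adjusted p of 0.202. Both were under the fold threshold. The ratios of PLOD1 to PLOD2 and of PLOD2 to PLOD3 differed between groups of a day by at most 0.17 on the log2 scale, and the lowest unadjusted exact permutation p among these 12 tests was 0.198.

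Among the lysyl oxidases, which start crosslinks by oxidising lysines, LOXL1 and LOXL2 were called lower against Ctrl and LOX was not called. LOXL2 (chr14:69608692-69695834, plus strand) stood at 8.77, 10.2, 7.37, 7.92 and 9.82 RPKM in Ctrl mice, at 6.01, 4.23, 5.65, 6.53 and 5.85 in OVA mice and at 1.84, 1.21, 2.41, 2.06 and 1.47 in EAE mice of day 14. The 3 groups did not overlap, with EAE mice lowest and Ctrl mice highest. LOXL2 had a log2 fold change of -2.26 ± 0.17 (SE) against Ctrl (limma adjusted p = 4.83e-07) and -1.62 ± 0.17 against OVA (adjusted p = 6e-06), or 4.78 and 3.08 times lower. Its exons share 301 bases with the predicted gene Gm27177 on the opposite strand, so its level may hold reads of that gene too. LOXL1 (chr9:58287723-58313212, minus strand), known for its part in elastic fibres, stood at 19.0, 16.5, 14.7, 14.6 and 16.0 RPKM in Ctrl, at 10.6, 10.4, 10.0, 13.4 and 14.8 in OVA and at 9.35, 9.46, 9.47, 8.07 and 9.49 RPKM in EAE mice. The EAE mice lay below both other groups. For LOXL1 the log2 fold change was -0.81 ± 0.12 against Ctrl (adjusted p = 6.99e-05) and -0.35 ± 0.12 against OVA (adjusted p = 0.0266), the latter under the fold threshold at 1.27 times lower.

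The mean log2 ratio of LOXL1 to LOXL2 was 2.32 ± 0.42 (SD, n = 5) in EAE mice, against 0.87 ± 0.18 in Ctrl and 1.05 ± 0.24 in OVA mice of day 14. Every EAE mouse lay above every other mouse of that day. The difference from Ctrl was 1.45 and that from OVA was 1.27 (exact permutation p = 0.00794, adjusted p = 0.0476 for each). LOXL2 was thus lower relative to LOXL1. LOX, the founding member of the family, varied widely between mice of 1 group: 2.03, 10.8, 10.6, 9.87 and 11.1 RPKM in Ctrl, 7.66, 7.12, 10.7, 9.17 and 10.1 in OVA and 6.78, 5.54, 11.0, 9.15 and 6.04 in EAE mice. The groups overlapped, and the lowest value of all belonged to the Ctrl mouse that stood apart. The log2 fold change between EAE and Ctrl was -0.04 with a 95% interval from -0.81 to 0.74, and without that mouse it was -0.50 with an adjusted p of 0.0349, under the fold threshold. With all 5 Ctrl mice the interval did not leave out a change in LOX of 1.5-fold in either direction.

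SERPINH1 stood at 43.1, 79.5, 52.5, 64.5 and 63.4 RPKM in Ctrl mice, at 36.1, 51.8, 57.2, 55.0 and 63.3 in OVA mice and at 30.1, 23.0, 32.9, 32.4 and 20.3 in EAE mice of day 14. All EAE mice lay below all mice of the other groups, whose ranges overlapped. SERPINH1 had a log2 fold change of -1.12 ± 0.19 (SE) against Ctrl (limma adjusted p = 0.000219) and -0.93 ± 0.19 against OVA (adjusted p = 0.00119). PCOLCE stood at 125, 144, 79.0, 114 and 101 RPKM in Ctrl, at 81.8, 66.9, 77.9, 89.9 and 107 in OVA and at 40.8, 27.0, 48.5, 45.7 and 33.2 in EAE mice. Here too the highest EAE mouse lay below the lowest mouse of either other group. PCOLCE had a log2 fold change of -1.53 ± 0.18 against Ctrl (adjusted p = 1.41e-05) and -1.13 ± 0.18 against OVA (adjusted p = 0.000207). PCOLCE shares 112 bases of exon with Fbxo24 on the same strand and with a predicted gene on the opposite strand.

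SERPINH1 was also set against COL1A1, the main chain of its client type I collagen and not a member. COL1A1 averaged 432 RPKM in Ctrl, 186 in OVA and 30.3 in EAE mice of day 14. The log2 ratio of SERPINH1 to COL1A1 was -2.72 ± 0.46 (SD, n = 5) in Ctrl, -1.79 ± 0.53 in OVA and -0.07 ± 0.33 in EAE mice. The chaperone was therefore 6.27 times higher relative to COL1A1 in EAE than in Ctrl mice and 3.28 times higher than in OVA mice, with no overlap (two-sided exact permutation p = 0.00794, adjusted p = 0.0476 for each). OVA and Ctrl mice overlapped, and their means lay 0.94 apart (exact permutation p = 0.0159, adjusted p = 0.0816).

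Counted over the members, 5 of the 9 tested were called lower and 0 higher in EAE against Ctrl mice on day 14, where 11.8% of the 8771 genes tested were called lower and 14.6% higher. In 6 members the groups did not overlap, all lower, against 11% of genes tested. Against OVA mice 4 of 9 were called lower, with 9.28% of 8674 genes tested called lower and 11% higher, and in 5 the groups did not overlap, against 8.2%. All 9 fold changes were negative in both comparisons, with a median of -0.81 against Ctrl and -0.35 against OVA, while the median over all genes tested was 0.11 in each. These comparisons share the EAE mice. LOXL2, at 1.80 RPKM in those mice, entered both counts only through the other group, where it was higher. Without the Ctrl mouse that stood apart, the same number, 5, was called against Ctrl, with log2 fold changes of -0.92 (P4HA1), -0.75 (LOXL1), -2.26 (LOXL2), -1.24 (SERPINH1) and -1.48 (PCOLCE). Scaling by the median of ratios moved the median of all genes to 0.0076 against Ctrl and 0.011 against OVA, and the share of called genes that were higher from 55.3% to 42.0% against Ctrl and from 54.3% to 41.1% against OVA. The members called stayed at 5 and 4.

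**Figure D2:**
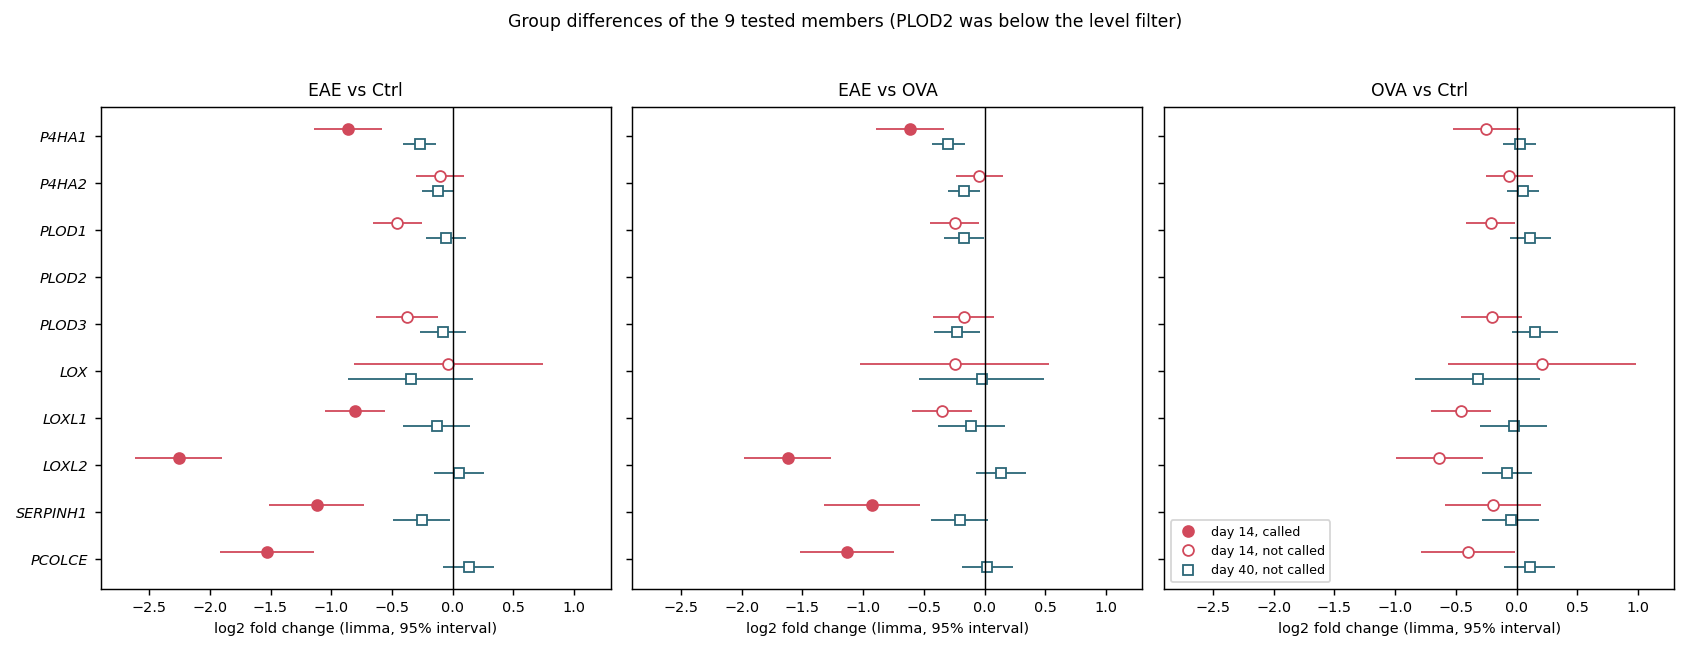
Log2 fold change of each tested member in 3 comparisons, on day 14 (circles) and day 40 (squares); horizontal lines are 95% intervals from limma and filled symbols are called genes. On day 14 the filled symbols are P4HA1, LOXL2, SERPINH1 and PCOLCE in both EAE comparisons and LOXL1 against Ctrl alone, and every day 40 symbol is open.

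In bulk muscle, fewer cells of a type and less RNA per cell cannot be told apart. Markers of fibroblasts and fibro-adipogenic progenitors, the cells that make most collagen, moved with the members: 10 of 12 were called lower in EAE against Ctrl mice on day 14, with a median log2 fold change of -0.95, and their summed level was 786 to 1122 RPKM in EAE, 1117 to 1543 in OVA and 1588 to 1771 in Ctrl mice. Each of the 12 stayed above 3 RPKM in every group, and Pdgfra, which defines the progenitors, had a log2 fold change of -0.16 that was not called. Tendon markers were called lower in 7 and higher in 1 (Scx) of 9 tested, and summed to 322 to 524 RPKM in EAE against 660 to 920 RPKM in Ctrl mice. Macrophage markers were called lower in 6 of 10 tested, with sums of 159 to 357 RPKM in EAE and 341 to 502 in Ctrl mice, and endothelial markers in 4 of 12, with sums of 157 to 214 and 186 to 249.7 RPKM. Of the macrophage markers 10 were above 3 RPKM in Ctrl and 9 in EAE mice. Of 8 tested markers of smooth muscle and pericytes 0 were called (limma, 4 at an unadjusted p under 0.05), and of 12 fast fibre markers 2 were called lower. Over all 8771 genes tested, 4855 had an unadjusted p under 0.05. The part of these cell types in the members' levels was not tested.

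The rest of the collagen pathway was read from a compiled list of 25 further enzymes and chaperones, of which 16 were tested on day 14. Only 14 were above 3 RPKM in EAE mice. Fkbp10, at 2.81 RPKM, and Creb3l1, at 2.95 RPKM, passed the filter through the other group alone. In EAE against Ctrl mice 8 were called lower and 2 higher. The lower ones held the partners of members above: Bmp1, the proteinase that PCOLCE serves, fell from 11.7 to 4.02 RPKM (log2 fold change -1.54, limma adjusted p = 5.28e-06), its relative Pcolce2 fell by 0.86 on the log2 scale, and Adamts2, which removes the N-terminal propeptide, fell by 0.73. Crtap and P3h3, which act in prolyl 3-hydroxylation or lysine modification complexes, fell by 1.05 and 1.21, and Fkbp10, a prolyl isomerase of the same compartment, fell by 1.49. Creb3l1, a transcription factor that drives collagen genes, fell by 1.504 and Sparc, a collagen-binding matrix protein, fell by 2.27. The genes called higher were P4hb (0.61), which encodes the shared beta subunit of the prolyl 4-hydroxylases, also known as protein disulfide isomerase, and Tmem38b (1.37), an ion channel of the endoplasmic reticulum. P4hb stood at 74.8 ± 8.03 RPKM (SD, n = 5) in EAE and 50.7 ± 14.0 in Ctrl mice, so it was higher while P4HA1 was lower. That value of P4hb against Ctrl lay close to the fold threshold. Against OVA mice 6 were called lower and 1 higher (Tmem38b), and P4hb was 0.50 (limma adjusted p = 0.0437), under the fold threshold and not called.

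Fibrillar collagen chains were lower in all 8 tested against Ctrl, with a median log2 fold change of -2.08, and in all 7 tested against OVA, with a median of -1.44. Other collagen chains were called lower in 12 of 13 against Ctrl, with a median of -1.09. In Ctrl mice 8 fibrillar and 13 other chains were above 3 RPKM, and in EAE mice 7 and 8. Chains under 3 RPKM in EAE mice entered these counts only through Ctrl mice, where they were higher. General chaperones of the endoplasmic reticulum did not go the same way. Their list also held genes that are not chaperones, such as the transcription factor Xbp1. Of 16 tested 3 were called higher against Ctrl (Canx, Dnajb9 and Xbp1) and 0 lower, with a median of 0.19 beside 0.11 for all genes. Genes that respond to hypoxia, among which P4HA1 and LOX are often counted, were called higher in 2 (Bnip3 and Egln3) and lower in 3 (Vegfa, Egln1 and Ankrd37) of 16 tested, with a median of 0.10. Ankrd37, at 2.40 RPKM in EAE mice, passed the filter through Ctrl mice alone. On day 40 0 genes of these 5 lists were called in EAE against Ctrl mice (limma), and 2 of 18, 3 of 8, 3 of 12, 4 of 16 and 4 of 16 had an unadjusted p under 0.05, in the order enzymes, fibrillar chains, other chains, chaperones and hypoxia genes. Over all genes tested, 2423 of 8691 had such a p. The lists were chosen with earlier results of these data known, and these counts are descriptions.

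**Figure D3:**
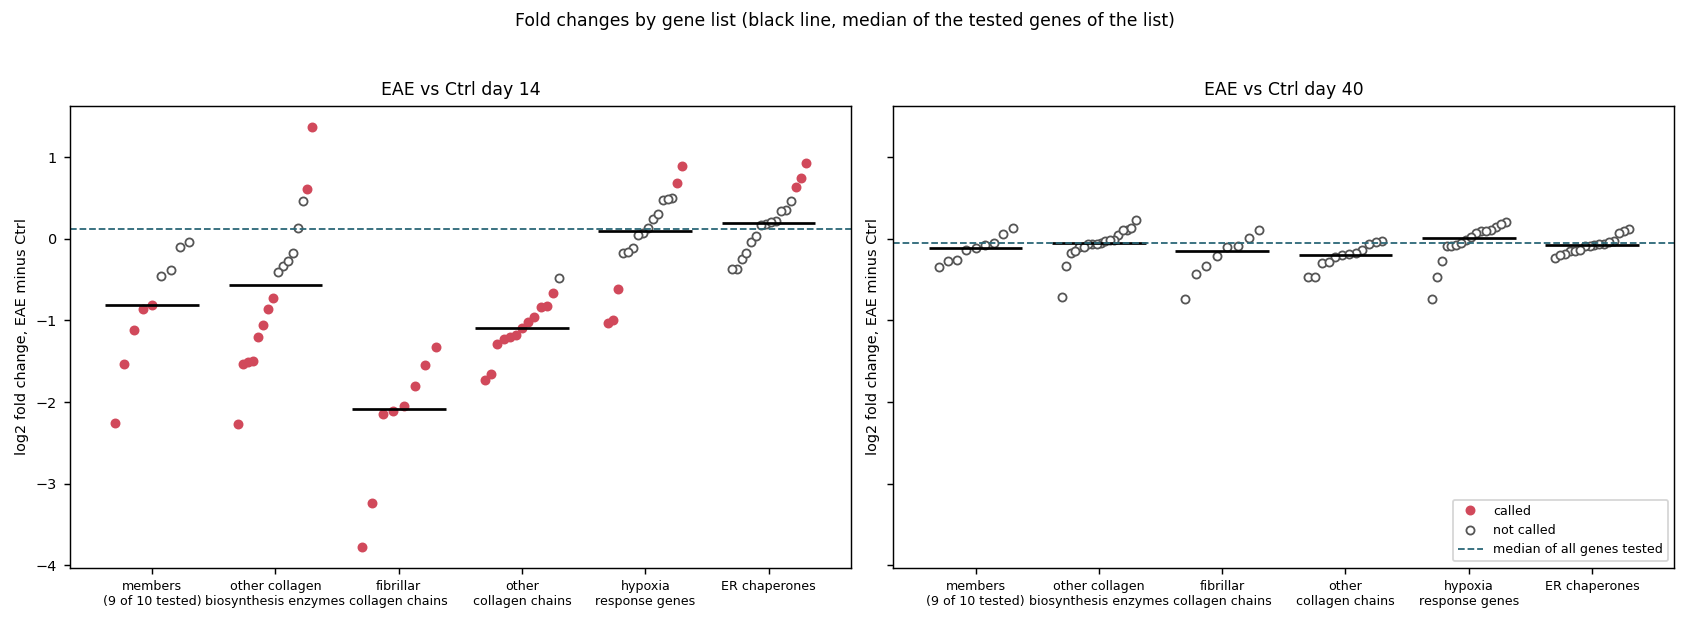
Log2 fold change of EAE against Ctrl mice for each tested gene of 6 lists on day 14 (left) and day 40 (right); filled points are called, black lines are list medians and the dashed line is the median of all genes tested. On day 14 the members centre on -0.81 and the fibrillar chains on -2.08, while chaperones of the endoplasmic reticulum and hypoxia genes centre near the line, and on day 40 no gene of the 6 lists is called.

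OVA mice lay between the other groups for several members on day 14. Of the 9 tested 0 were called between OVA and Ctrl mice (limma), where 0.142% of 8471 genes were called, and 4 had an unadjusted p under 0.05. Over all 8471 genes 821 had such a p. LOXL2 was 1.55 times lower in OVA mice, with no overlap (log2 fold change -0.64, adjusted p = 0.224), and 1.61% of genes tested had OVA mice below Ctrl mice without overlap. With all 30 mice in 1 model, which pools the spread of both days, the adjusted p of LOXL2 was 0.0256 and it was called. LOXL1 had a log2 fold change of -0.46 (adjusted p = 0.201), PCOLCE of -0.40 (adjusted p = 0.503) and PLOD1 of -0.21 (adjusted p = 0.48), all with overlap. P4HA1, P4HA2, PLOD3 and SERPINH1 lay between -0.25 and -0.06, and LOX was 0.21. Without the Ctrl mouse that stood apart LOX was -0.25, SERPINH1 was -0.31 and P4HA1 was -0.30, and 0 members were called.

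On day 40 the groups overlapped in all members but P4HA1. In EAE against Ctrl mice 0 of 9 members were called (limma, with 2 at an unadjusted p under 0.05), where 0.46% of 8691 genes were called. Against OVA mice 0 of 9 were called, with 4 at an unadjusted p under 0.05 and 0.209% of 8598 genes called. Between OVA and Ctrl mice 0 were called and 0 had an unadjusted p under 0.05, as 0% of 8706 genes were called. P4HA1 stood at 20.2, 19.3, 18.6, 19.0 and 19.8 RPKM in EAE, at 22.8, 23.8, 26.4, 22.6 and 22.0 in Ctrl and at 21.8, 22.8, 23.4, 25.0 and 26.5 in OVA mice of day 40. All EAE mice lay below all others, which 4.51% of genes did against Ctrl and 4.9% against OVA. Its log2 fold change was -0.27 ± 0.07 (SE) against Ctrl (adjusted p = 0.0442) and -0.30 ± 0.07 against OVA (adjusted p = 0.0478), 1.21 and 1.23 times lower and so under the fold threshold. With no filter on low values these adjusted p-values were 0.0537 and 0.0793, and they exceeded 0.05 in some of the fits that left out 1 mouse, reaching 0.112 against Ctrl.

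LOXL2 stood at 8.01, 7.07, 7.45, 5.43 and 8.14 RPKM in EAE mice of day 40, against 6.36 to 7.26 in Ctrl and 5.88 to 6.97 in OVA mice. The EAE mice covered the range of the other groups, with a log2 fold change against Ctrl of 0.05 and a 95% interval from -0.15 to 0.26, which leaves out 1.5-fold in either direction. PCOLCE stood at 66.8 to 91.6 RPKM in EAE, 65.0 to 73.5 in Ctrl and 61.2 to 89.8 in OVA mice, with a log2 fold change against Ctrl of 0.13 (95% interval -0.08 to 0.34). SERPINH1 stood at 34.8 to 43.2 RPKM in EAE and 42.9 to 50.8 in Ctrl mice, with a log2 fold change of -0.26 (95% interval -0.49 to -0.02, adjusted p = 0.151). The interval of LOXL1 against Ctrl ran from -0.41 to 0.15, and those of PLOD1, PLOD3 and P4HA2 lay inside it. That of LOX ran from -0.86 to 0.17, the widest of the members. PLOD2 stood at 2.43 to 3.70 RPKM in Ctrl, 2.49 to 3.22 in OVA and 1.83 to 2.74 in EAE mice.

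A further model of all 30 mice asked whether the EAE effect was of the same size on both days, through its interaction term. A positive value means that EAE mice lay nearer to, or further above, their controls on day 40. The effect against Ctrl was higher on day 40 than on day 14 for 5 of 9 members, where 11.7% of 9013 genes tested were called higher. The change was 2.31 ± 0.20 (SE) for LOXL2 (limma adjusted p = 6.93e-09), 1.66 ± 0.21 for PCOLCE (adjusted p = 1.31e-06), 0.87 ± 0.22 for SERPINH1 (adjusted p = 0.00272), 0.67 ± 0.18 for LOXL1 (adjusted p = 0.0035) and 0.59 ± 0.15 for P4HA1 (adjusted p = 0.00188). The value of P4HA1 lay at the fold threshold, 1.504 times, and was called in the full data but under the threshold without any 1 of 10 of the 20 mice and with a pseudocount of 1 (0.56). Without the first EAE mouse of day 40 LOXL1 also fell under it (0.56) and 3 members were called. Against OVA mice the effect was higher on day 40 for 3 of 9, LOXL2 (1.75), PCOLCE (1.15) and SERPINH1 (0.72), where 8.16% of 8935 genes were called higher. Scaling by the median of ratios moved the share of interaction calls that were higher, over all genes, from 35.9% to 53.0% against Ctrl and from 37.4% to 56.0% against OVA, and left 5 and 3 members called. The effect of OVA against Ctrl changed in 0 of 9 members (limma, 5 at an unadjusted p under 0.05), where 0% of 8848 genes were called. Of these genes 823 had an unadjusted p under 0.05.

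The interaction draws on Ctrl as well as EAE mice, so the change between days is given within each group. In EAE mice 2 of 9 members were called higher on day 40, where 8.36% of 8709 genes were: LOXL2, from 1.80 to 7.22 RPKM on average (log2 fold change 1.97, limma adjusted p = 1.19e-11), and PCOLCE, from 39.1 to 76.5 RPKM (0.99, adjusted p = 5.53e-06). LOXL2 entered this count only through the mice of day 40, where it was higher. SERPINH1 did not overlap between the days either, at 27.7 and 38.3 RPKM (0.49, adjusted p = 0.0124, under the fold threshold). Groups that did not overlap and were higher on day 40 made up 10.2% of genes tested. The same scaling moved the share of calls in EAE mice that were higher from 39.7% to 54.5%, and SERPINH1 was then called as well, at 0.59, for 3 members in all. P4HA1 overlapped between the days, with 0.37 (adjusted p = 0.0037). LOXL1 overlapped as well, at 9.17 and 10.1 RPKM on average (0.11, not called). In Ctrl mice PCOLCE was called lower on day 40, from 113 to 69.5 RPKM (-0.67, adjusted p = 0.00411), where 4.35% of 8788 genes were called lower, and it fell under the fold threshold without the second Ctrl mouse of day 14 (-0.57). Without the Ctrl mouse that stood apart PCOLCE stayed called (-0.62, limma adjusted p = 0.0165), and fewer genes in all were called lower. In PCOLCE, LOXL1, LOXL2, PLOD1 and PLOD3 the Ctrl mice of day 40 lay below those of day 14 with no overlap, against 5.2% of genes. LOXL1 was 1.48 times lower (-0.56, adjusted p = 0.00403), and -0.50 without the Ctrl mouse that stood apart (limma adjusted p = 0.0177). The interaction of LOXL1 thus held more of this fall in Ctrl mice than of a rise in EAE mice. In OVA mice 0 of 9 were called (limma, 0 at an unadjusted p under 0.05), where 3.97% of 8648 genes were. Of these genes 2124 had an unadjusted p under 0.05. PLOD2, not among those tested, was higher on day 40 in OVA mice with no overlap, at 2.49 to 3.22 RPKM against 1.96 to 2.34 RPKM, as 7.02% of the genes tested were.

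**Figure D4:**
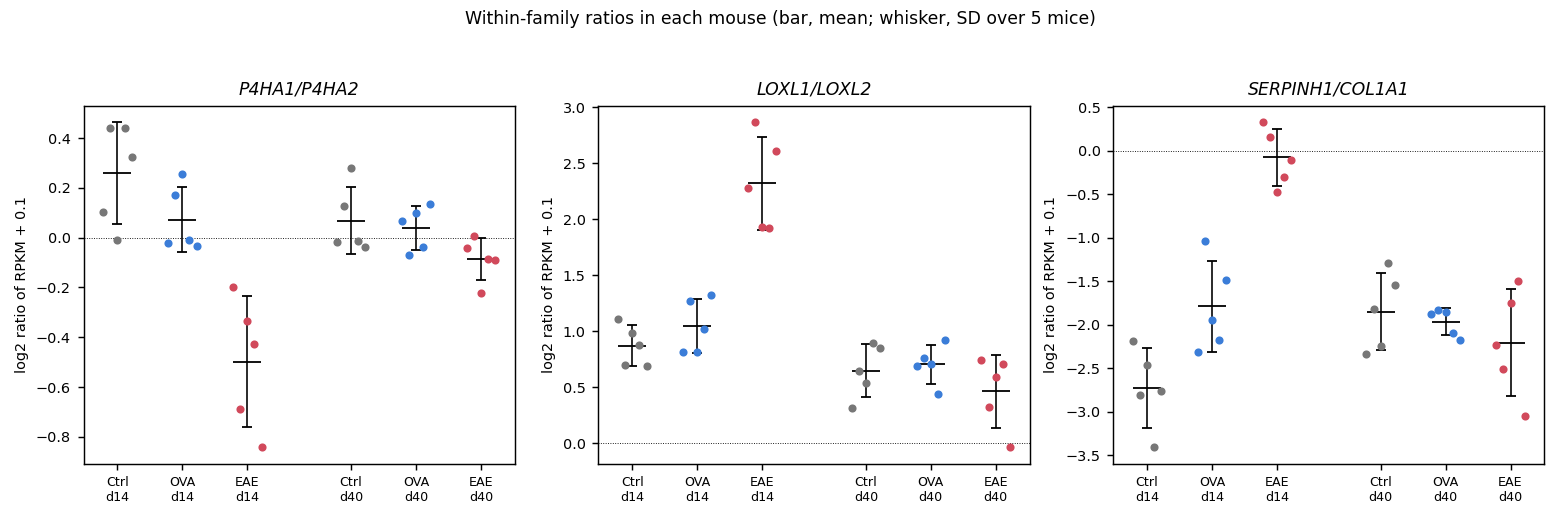
Log2 ratio of P4HA1 to P4HA2, LOXL1 to LOXL2 and SERPINH1 to COL1A1 in each mouse, by group and day; points are mice, horizontal bars are means and whiskers are the SD over 5 mice. The EAE mice of day 14 lie apart from both other groups of that day in all 3 ratios, with means of -0.50, 2.32 and -0.07, and on day 40 the EAE mice overlap both other groups in each.

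Of the 36 ratio tests 6 had an adjusted p under 0.05, all of EAE mice on day 14 and all in the ratios P4HA1 to P4HA2, LOXL1 to LOXL2 and SERPINH1 to COL1A1. On day 40 P4HA1 to P4HA2 was -0.09 ± 0.08 (SD, n = 5) in EAE and 0.07 ± 0.14 in Ctrl mice, which overlapped (exact permutation p = 0.0476, adjusted p = 0.214). LOX to LOXL1 differed by 0.77 between EAE and Ctrl mice of day 14 and overlapped (exact permutation p = 0.23, adjusted p = 0.571), and by 0.25 without the Ctrl mouse that stood apart.

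Genes were ranked by how closely they followed each member over the 30 mice, as the root mean square difference of log2(RPKM + 0.1) after centring each gene on its own mean, among 9048 genes above 3 RPKM in at least 1 group. The mice share groups, so this describes the pattern over groups as well as between mice. PCOLCE was followed most closely by Creb3l1 (0.16), Rcn3 (0.16) and Fkbp10 (0.17), against its own SD of 0.52, and 2 of these belong to the list of collagen enzymes and their regulators. SERPINH1 was followed by Emilin1 (0.17), the member P4HA1 (0.19) and Txndc5 (0.21), against its own SD of 0.43. P4HA1 was followed by Mrc2 (0.14), the endocytic collagen receptor, Tmem184b (0.15) and Txndc5 (0.16), against its own SD of 0.32. LOXL2 was followed by Ssc5d (0.21), Thy1 (0.22) and Serpinf1 (0.23), against its own SD of 0.78.

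LOX was followed by Ogn (0.30), Thbs2 (0.32) and Lhfp (0.34), against its own SD of 0.53. The nearest member, P4HA2, came at rank 2173, and its difference of 0.51 was near that SD. LOX was lowest in the Ctrl mouse that stood apart, and the ranking was not repeated without that mouse. LOXL1 was followed by Fcgrt (0.16), Actb (0.18) and Smtn (0.18), against its own SD of 0.32, with PLOD3 as nearest member at rank 33. PLOD3 was followed by Rcc2, Gnai2 and Lmf2, at 0.10 to 0.12, against its own SD of 0.20. For P4HA2 the nearest genes Ctr9, Rtn3 and Ctdsp2 differed from it by 0.10 to 0.11, which is near its own SD of 0.11, so no gene followed it closely relative to how little it varied.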

How the data were processed

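Poly(A) RNA of EDL muscle from 30 mice was sequenced with a strand-specific kit. The authors aligned reads to mm10 with Subread and counted them over RefSeq transcripts with featureCounts, and the deposited values, per the values themselves, are log2(RPKM + 1), with 0.0001 where a gene had no read (25.8% of values). They were turned back into RPKM. As a check of this scale, RPKM times exon length in kilobases summed to 964277 to 1027931 per mouse. Whether counting used strand is not given in the sources used here. Depth was estimated at 18100000 to 31600000 reads per mouse from the steps of low values. All 60 pairs of mice within a group differed by more than sampling noise (lowest chi-square per gene 7.921).

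Groups were compared with limma 3.58.1 in R 4.3.3 (trended empirical Bayes) on log2(RPKM + 0.1). Each model held the 15 mice of 1 day, or all 30 for interactions and comparisons of days. Genes above a mean of 3 RPKM in 1 or more compared groups were tested. Calls needed a Benjamini-Hochberg adjusted p below 0.05 over all genes tested and a fold change above 1.5. Ratios within a mouse were compared by two-sided exact permutation tests, adjusted over 36 tests (scipy 1.17.1, python 3.11.15). On simulated data for EAE against Ctrl on day 14, 91 of 100 genes changed by a log2 of 1 and 98 of 100 changed by 2 were recovered, with 8 false calls among 8100 genes.

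All 10 members are named. Genes of the compiled lists could be named where called or where they had the largest or smallest log2 fold change of a list, and not all such genes are. Pdgfra was named outside this rule, after its values were seen. The 3 genes nearest in pattern were taken among genes above 3 RPKM, which leaves out PLOD2, and those nearest PLOD1 are not reported here. The members and lists were chosen with earlier results of these data known. Alternatives were a pseudocount of 1, no filter, median-of-ratios scaling, no fold threshold, a replicate block, other sets of mice in the model and leaving out each mouse. Promoters and positions are from RefSeq, GRCm38.p6.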

Additional observations from a re-analysis of the deposited data

Results flagged for a closer look

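In 5 of 60 sets of 5 mice (10 genes in 6 groups), 1 mouse lay further from the rest than Dixon's 95% critical value of 0.71 allows, and chance gives about 1 in 20 such sets. LOX stood at 2.03 RPKM in the first Ctrl mouse of day 14, the mouse that stood apart over all genes, against 9.87 to 11.1 RPKM in its group. PLOD1 stood at 18.7 RPKM in the second Ctrl mouse of day 40 and at 14.1 RPKM in the first OVA mouse of day 14. PLOD2 stood at 1.83 RPKM in the fourth EAE mouse of day 40, and LOXL1 at 8.07 RPKM in the fourth EAE mouse of day 14.

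The effect of EAE differed between the days by the interaction test in limma. Against Ctrl the day 40 effect exceeded that of day 14 by 0.59 for P4HA1, 0.67 for LOXL1, 2.31 for LOXL2, 0.87 for SERPINH1 and 1.66 for PCOLCE on the log2 scale. Against OVA the differences were 1.75 for LOXL2, 0.72 for SERPINH1 and 1.15 for PCOLCE. Both sets share the EAE mice, and day cannot be told apart from age or handling.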

How the results depend on the processing

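Of the recomputed log2 fold changes of single members 1825 kept their direction and side of the threshold, 17 lost the call, 6 gained it and 42 changed sign, all of the latter in members that were not called. With all 30 mice in 1 model 1 member (LOXL2) was called between OVA and Ctrl mice on day 14. With no fold threshold 1 member (P4HA1) was called in EAE against Ctrl and 1 in EAE against OVA mice on day 40, and 4 members were called between days in Ctrl mice and 4 in EAE mice. The share of all genes called in this way was not counted. Between days 4010 of 8788 genes in Ctrl and 4801 of 8709 in EAE mice had an unadjusted p under 0.05 (limma), as had 7 and 4 of 9 members. Median-of-ratios scaling called 2 members between days in Ctrl mice, where it called 364 genes higher and 435 lower of 8807 tested. It also turned the sign of LOX in EAE against OVA on day 40 (0.0068), of P4HA2 in the EAE against Ctrl interaction (0.12) and between days in EAE mice (0.069), and of PLOD3 in the EAE against OVA interaction (0.073). A pseudocount of 1 turned the PLOD1 to PLOD2 ratio of EAE against OVA on day 14 (-0.040) and day 40 (-0.019) and the PLOD2 to PLOD3 ratio of EAE against Ctrl on day 14 (0.059).

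Leaving out 1 mouse at a time gave 3 to 5 members called in the EAE against Ctrl interaction, and 0 (without the second Ctrl mouse of day 14) to 2 between days in Ctrl mice. The sign of LOX turned in EAE against Ctrl on day 14 (-0.50 to 0.097), OVA against Ctrl on day 14 (-0.25 to 0.34), EAE against OVA on day 40 (-0.21 to 0.11), the EAE against Ctrl interaction (-0.49 to 0.15), and between days in Ctrl (-0.060 to 0.56) and EAE mice (-0.090 to 0.23). That of P4HA2 turned in EAE against OVA on day 14 (-0.087 to 0.028), the EAE against Ctrl interaction (-0.085 to 0.030), and between days in Ctrl (-0.039 to 0.0041) and EAE mice (-0.11 to 0.0081). Other signs turned for PCOLCE in EAE against OVA on day 40 (-0.049 to 0.090), for P4HA1 (-0.013 to 0.067), LOXL1 (-0.093 to 0.027) and SERPINH1 (-0.14 to 0.038) in OVA against Ctrl on day 40, and for PLOD3 in the EAE against OVA interaction (-0.13 to 0.033) and between days in EAE mice (-0.057 to 0.089). The cause was not tested.

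With the replicate number as a block the counts of members called were 5 and 4 in EAE against Ctrl and OVA on day 14, 0 in the other 4 comparisons of groups, 5, 3 and 0 in the interactions and 1, 0 and 2 between days, as without the block. The numbers did not pair the mice: correlations of mice with the same number ran from -0.715 to 0.686, and at most 1 of 5 correlated best with its own number in any comparison. Over all genes, calls in EAE against Ctrl on day 14 ranged from 1974 (pseudocount 1) to 3569 (no filter) around 2318, in EAE against Ctrl on day 40 from 0 (all 30 mice) to 56 around 40 (15% higher, and 27.3% under median-of-ratios scaling), in EAE against OVA on day 40 from 0 (replicate block) to 14 against 18 as reported (16.7% higher, and 0% of 2 under that scaling), and in OVA against Ctrl on day 14 from 7 to 36 around 12. OVA against Ctrl had 0 to 1 calls on day 40 and 0 to 7 in the interaction, around 0 in each. Between days the calls ranged from 579 to 1365 around 823 in Ctrl, from 282 to 833 around 343 in OVA and from 1548 to 3070 around 1834 in EAE mice. Fits that left out 1 mouse are not part of these ranges of calls over all genes. Without the Ctrl mouse that stood apart, fewer than 579 genes were called between days in Ctrl mice, so that count depended on this mouse. Low levels limit PLOD2, which stood under 3 RPKM in each group mean, and LOXL2 in EAE mice of day 14, and spread between mice limits LOX.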
